A study of Mus musculus with 53 samples.

Results

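The data described here compare 2 effects of the same genotype: the difference between BA tumours at clinical endpoint and WT proximal colon, and the difference between BA and WT proximal colon on day 30 (d30) after induction. They rest on 16 of the 53 RNA-seq libraries of the series, chosen by genotype, tissue and time alone: 4 endpoint BA tumours, 3 samples of WT proximal colon set beside them, 5 samples of d30 BA proximal colon and 4 of d30 WT proximal colon. BA mice carried VilCreER, 1 mutant BrafV600E allele and floxed Alk5 on both chromosomes, Alk5 being the older name of the type I TGFβ-receptor gene Tgfbr1. WT mice carried VilCreER alone. All were adult when tamoxifen was given, of a mixed C57BL/6J background (N6), male or female, and none received a drug. For the WT tissue set beside the tumours the labels give no day. Each library stands for 1 mouse or tumour, and p-values measure the spread between such samples.

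Several properties of the model bear on what these numbers can show. VilCreER is active in intestinal epithelium, whereas RNA came from whole tissue, so that connective tissue, vessels and immune cells, which keep both wild-type genes, were sequenced together with the recombined epithelium. In such bulk samples, more cells of a type and more RNA per cell cannot be told apart. Endpoint and d30 also differ in the time since induction. A BA endpoint sample is a tumour, whereas a d30 sample is colon without a stated tumour. These cannot be told apart either, nor from a difference in batch, which is not given in the sources used here.

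BRAFV600E is a kinase that signals to ERK without upstream RAS, and ERK induces its own brakes, the DUSP and Sprouty proteins, along with transcription factors such as ETV4. TGFβ restrains the growth of intestinal epithelium and, in fibroblasts, drives the deposition of collagen. Sustained RAF signalling is also known to bring cells towards senescence, an arrest in which the Cdkn2a products p16 and p19 are induced and cytokines, proteases and growth factor binding proteins are secreted.

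The libraries held 12021486 to 29106913 reads counted on genes, so that 3 counts, the floor used here, amounted to 0.103 to 0.25 CPM, a unit of counts scaled to library size. Levels are given below as CPM scaled with TMM factors, and levels of different genes are not compared, since CPM take no account of gene length. In a principal component analysis of the 500 most variable genes, the first component (73.4% of variance) set the endpoint libraries apart from the d30 libraries and the second (13.6%) set BA apart from WT. The first component also parted the WT groups, at 48.4 to 56.6 in WT proximal colon and -47.9 to -44 in d30 WT. Counts on 70 histone genes summed to 2070 to 4150 CPM of the library total in WT proximal colon and 279 to 324 in d30 WT. They summed to 1660 to 5680 in tumours and 568 to 886 in d30 BA. The batch of the libraries is not given in the sources used here, and its part in these differences was not tested. BA tumour 2 stood apart: 11.7% of its reads were mitochondrial against 2.12% to 5.09% in the other libraries, and the pseudogene Gm13394, which shares 96.5% of its sequence with Gapdh, stood at 3.83 CPM of the library total there against 50.4 to 60.6 in the other tumours, 93.3 to 222 in d30 BA and at most 1.31 in WT. The Y-linked gene Ddx3y exceeded 10 CPM in 3 of 4 tumours, in 0 of 3 WT samples beside them and in all 9 d30 libraries, and tumour 2 also held 38.7 CPM of Xist, an RNA of the inactive X chromosome. Results are therefore given with and without tumour 2 where it moved them, and a fit with a term for Y-linked reads is given where it changed a count by over 1.5 times. In that fit the endpoint effect rests on tumour 1, the only tumour with Ddx3y at or under 10 CPM. Of the interactions described below, those of Cd68, S100a9, Ms4a1, Cxcl2, Cxcl5, Il1b, Il1rn, Ccl20, Mmp10, Mmp12 and Tgfbr1, whose levels are given by library, lost their call in that fit, as did those of Postn, Dcn, Col6a1, Fap, Chil3, Csf1r, C1qa, S100a8, Osm, Eda2r, Igfbp4, Msln, Tgfb1, Chga, Car4, Ndrg1, Slc2a1, Ccnd1, Reg3g and Itln1, and those of Saa3, Ms4a10, Nrg1 and Fabp6 in the closing section.

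Tgfbr1, the gene deleted from the epithelium, stood at 96.0, 88.6, 127 and 164 CPM in the tumours, 48.4, 49.2 and 52.9 in WT proximal colon, 49.9, 41.2, 51.8, 56.8 and 52.9 in d30 BA and 62.4, 33.5, 44.5 and 55.4 in d30 WT. Its level was thus higher in every tumour than in every WT sample, and overlapped between d30 BA and d30 WT. The d30 effect was 0.04 on the log2 scale (SE 0.186, adjusted p = 0.881) and the endpoint effect 1.24 (SE 0.211, adjusted p = 0.000492, edgeR's quasi-likelihood test with Benjamini-Hochberg adjustment). These counts are sums over the whole gene in whole tissue, so they do not check the deletion, and Braf counts likewise cannot show 1 changed codon.

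The comparison itself is the interaction, that is, the endpoint effect minus the d30 effect in log2, fitted in 1 model of the 4 groups. Of 20637 genes tested, 9.87% (2037 genes) had an endpoint effect above the d30 effect and 6.46% (1334) one below it, at an adjusted p under 0.05. The endpoint effect alone was called for 29.3% of genes (15.7% higher and 13.6% lower) and the d30 effect for 31.2% (14.1% higher and 17% lower). These shares, with those of the interaction, are the background for the counts of each list below. Of the 2037 genes, 995 were higher in tumours with no call at d30, 599 were lower at d30 with no call at endpoint, and 287 changed sign between them. Of the 1334 genes, 537 were lower in tumours alone, 453 were higher at d30 alone and 102 changed sign. Not all of this lay between the BA groups. Tumours and d30 BA were called different for 61.1% of genes (32.8% higher and 28.2% lower in tumours), but the WT groups were called different too, for 40.6% (20.2% higher and 20.5% lower in WT proximal colon). Thus 455 of the 2037 genes were lower in WT proximal colon than in d30 WT, and for 1372 the WT groups were not called different. Over all genes the median interaction was 0.02, and the median SE was 0.355 in log2, so that a change of less than 2-fold between the effects was hard to call for a typical gene.

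**Figure D1:**
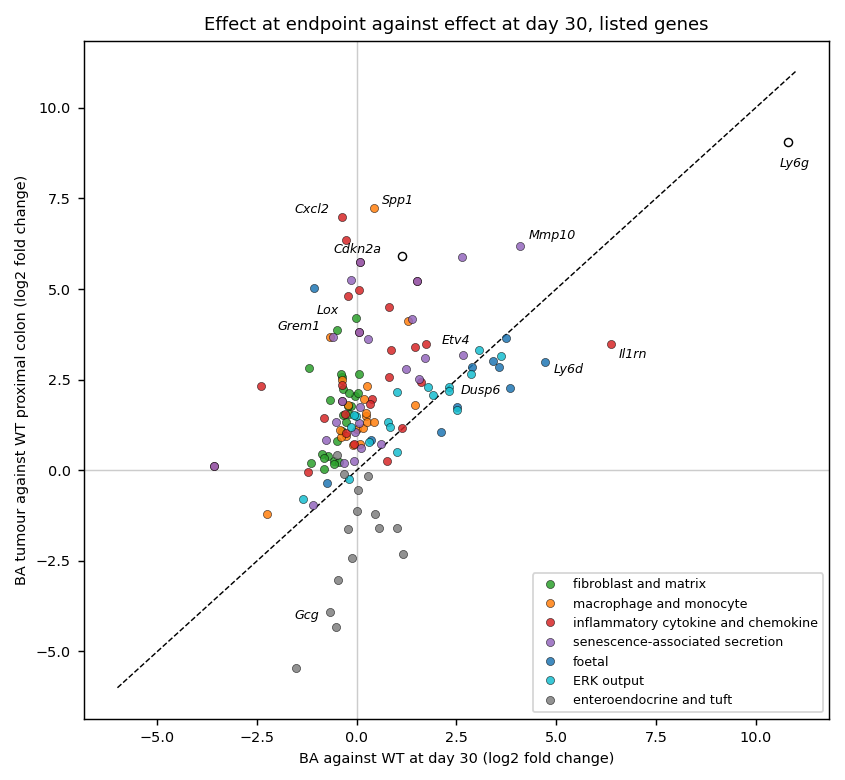
BA effect at d30 (x axis, log2 fold change of BA against WT) and at endpoint (y axis, log2 fold change of BA tumour against WT proximal colon), 1 point per gene of the lists in the key, with the dashed line where both are equal. Many points of the fibroblast, macrophage, cytokine and secretion lists rise at an x near 0, most genes of ERK output and the foetal list lie near the line, and open circles mark Ly6g and Cdkn2a.

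The clearest addition in tumours was in genes of connective tissue. Of 26 fibroblast and matrix genes, all of which passed the filter on low counts, 22 had a higher effect at endpoint than at d30 (24 by DESeq2), where 9.87% of all genes were higher. The median interaction of the list was 1.89 in log2, made of a median of 1.66 at endpoint and -0.38 at d30, against 0.02, 0.05 and 0.00 over all genes. At endpoint, 17 of the 26 genes were higher in tumours than in WT (background 15.7%). At d30, 10 of the 26 genes were lower in BA than in WT (background 17%), so that the interaction holds both changes. The summed level of the list was 9520 to 12270 CPM in tumours, 2989 to 4955 in WT proximal colon, 2060 to 2736 in d30 BA and 2982 to 3540 in d30 WT.

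Col1a1, a chain of type I collagen, stood at 881, 1403, 702 and 976 CPM in the 4 tumours, 148, 294 and 278 in the 3 WT samples, 192, 176, 177, 164 and 123 in d30 BA and 169, 165, 176 and 176 in d30 WT. Tumours thus lay above every other library while the other 3 groups overlapped, with an interaction of 2.09 (SE 0.322, adjusted p = 0.000671). Lox, the lysyl oxidase that cross-links collagen, was at 83.9, 176, 158 and 209.6 CPM in tumours, 7.90, 7.63 and 9.86 in WT proximal colon, 7.10, 5.26, 7.19, 7.67 and 4.56 in d30 BA and 6.17, 6.16, 5.93 and 7.35 in d30 WT. It was flat at d30 (-0.01, adjusted p = 0.975) and its endpoint effect of 4.21 therefore appeared whole in the interaction (4.22, SE 0.330, adjusted p = 6.64e-06). Grem1, a secreted antagonist of BMP made by fibroblasts of the gut, was at 227, 343, 324 and 317 CPM in tumours, 21.0, 32.2 and 9.72 in WT proximal colon, 18.8, 23.9, 21.6, 11.8 and 16.2 in d30 BA and 18.6, 30.51, 30.6 and 24.5 in d30 WT, with an interaction of 4.35 (SE 0.414, adjusted p = 3.56e-05). Pdgfrb, a receptor of fibroblasts and pericytes, was at 98.6, 109.6, 112 and 203 CPM in tumours, 28.1, 33.01 and 28.3 in WT proximal colon, 28.1, 27.6, 31.5, 24.9 and 25.5 in d30 BA and 28.0, 29.2, 30.0 and 38.7 in d30 WT (interaction 2.33, SE 0.272, adjusted p = 0.000115). For Lox, Grem1 and Pdgfrb alike, the lowest tumour was above the highest of the 12 other libraries.

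Fibroblast genes did not all follow 1 pattern. Col5a2, Col12a1, Fn1 (fibronectin) and Thbs2 had interactions of 2.94, 3.05, 2.58 and 4.02, each with an endpoint effect of at least 2.25. For Postn (periostin), Dcn (decorin), Col6a1 and Fap, the interaction (1.11 to 1.33) was called as well, yet the endpoint effect was 0.19, 0.43, 0.40 and 0.33 and not called, and the d30 effect was -1.14, -0.88, -0.72 and -0.82 and called. For these, tumours and WT proximal colon overlapped and d30 BA lay below d30 WT. The interaction of Postn was not called without WT proximal colon 1 or with d30 A mice, which have floxed Alk5 alone, as controls in place of d30 WT, nor that of Fap without WT proximal colon 3. Lum and Pdgfra, markers of resident fibroblasts, gave interactions of 0.86 (adjusted p = 0.151) and 0.73 (adjusted p = 0.132, or 0.0274 without tumour 4). Without tumour 2 the list had 24 genes with a higher effect at endpoint, and with the term for Y-linked reads 17.

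Markers of other stromal cells moved apart from the fibroblast list. Of 12 endothelial genes, 7 were higher in the interaction (11 without tumour 2) and 9 at endpoint, where 9.87% and 15.7% of all genes were higher. Their medians were 1.04 and 0.97. Cdh5, the cadherin of endothelial junctions, stood at 27.0, 20.3, 18.6 and 36.4 CPM in tumours, 4.39, 8.08 and 5.15 in WT proximal colon, 14.3, 16.4, 17.8, 15.8 and 12.6 in d30 BA and 16.3, 16.2, 16.4 and 18.8 in d30 WT (interaction 2.27, SE 0.305, adjusted p = 0.000249). Here WT proximal colon was the low group, with a log2 difference of -1.53 from d30 WT (adjusted p = 0.000115), and summed endothelial levels were 224 to 438 CPM in tumours against 238 to 298 in d30 BA. Of 12 smooth muscle genes, 8 were lower in BA at d30 (17% of all genes) and 8 at endpoint (13.6%). In the interaction 0 were called by edgeR, DESeq2 or limma and 0 at an unadjusted p under 0.05. Their medians were -0.97 and -1.47, with Acta2 (smooth muscle actin) at -1.17 and -1.60 and Myh11 (its myosin) at -1.17 and -1.90, the d30 call of Myh11 being lost without any 1 of 7 d30 libraries. The summed muscle level varied within groups, from 2921 to 11480 CPM among the 3 WT samples and from 1498 to 5482 among d30 BA samples. Of 10 genes of enteric neurons and glia, 7 were lower at d30 (17% of all genes) and 3 at endpoint (13.6%). For these too, 0 were called in the interaction by edgeR, DESeq2 or limma and 0 at an unadjusted p under 0.05. The glial gene S100b had the same size of effect at both times (-1.62 at d30 and -1.60 at endpoint).

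**Figure D2:**
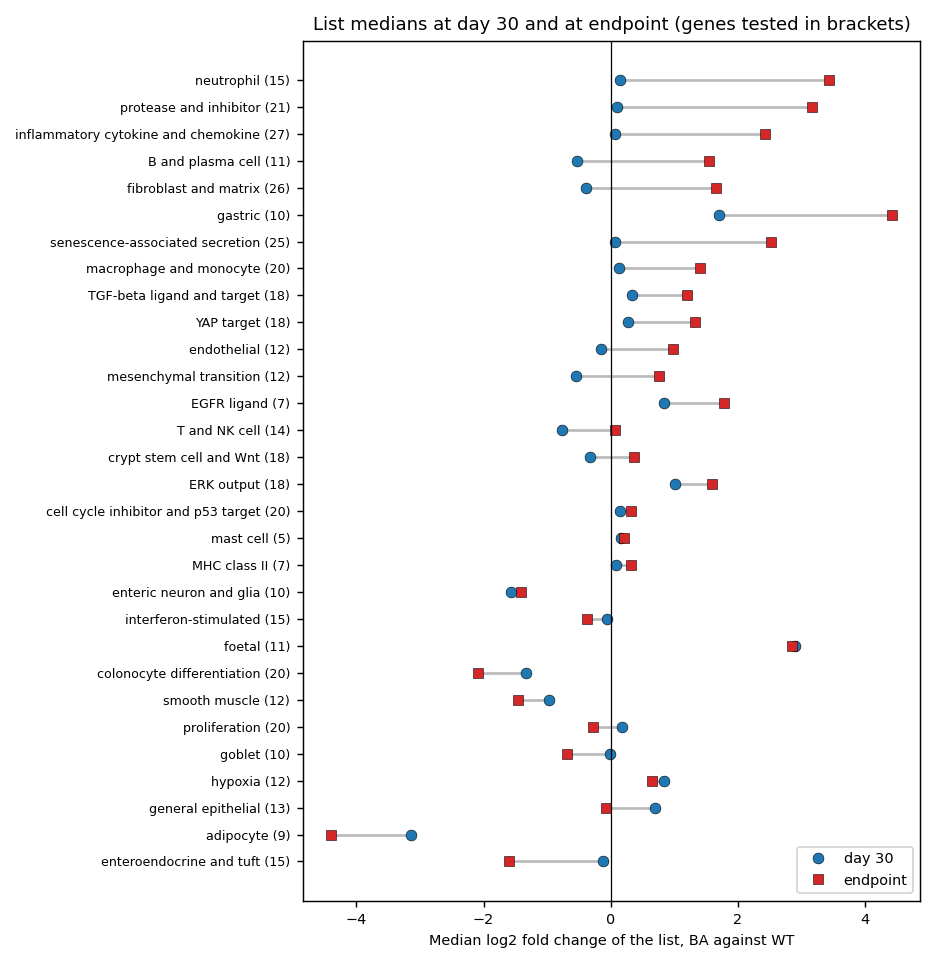
Median log2 fold change (x axis) of each gene list (y axis, number of genes tested in brackets, ordered by median interaction) in the d30 effect (circles) and the endpoint effect (squares), joined by a line. Fibroblast, macrophage, neutrophil, cytokine, secretion and protease lists have a d30 median near 0 and an endpoint median above 1, whereas the foetal list stands near 3 in both effects.

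Myeloid genes were the second addition. The medians of 20 macrophage and monocyte genes were 1.27 in the interaction, 1.41 at endpoint and 0.12 at d30. At endpoint 18 were higher (15.7% of all genes) against 1 at d30 (14.1%), and in the interaction 12 were higher (9.87%). The count was 15 without tumour 2, 7 without WT proximal colon 1 and 2 with the term for Y-linked reads, Spp1 and Trem2. How far the Y-linked difference enters this count was not tested. The summed level was 1173 to 4444 CPM in tumours, 708 to 889 in WT proximal colon, 624 to 795 in d30 BA and 699 to 812 in d30 WT.

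Spp1 (osteopontin), a secreted matrix protein of tumour macrophages and also of epithelium, stood at 117, 344, 273 and 1862 CPM in tumours, 2.27, 5.89 and 4.84 in WT proximal colon, 2.56, 4.17, 8.00, 0.121 and 1.81 in d30 BA and 4.62, 2.07, 0.815 and 2.13 in d30 WT. All tumours lay far above the other libraries, which overlapped. The tumours themselves were widely spread, with an interaction of 6.81 (SE 1.21, adjusted p = 0.00264; 13.5% of its words of 36 bases also occur in the overlapping Gm42793). Trem2, a lipid receptor of macrophages, was at 9.04, 62.9, 19.1 and 28.8 CPM in tumours, 2.08, 2.19 and 2.73 in WT proximal colon, 1.05, 0.726, 0.808, 1.27 and 1.11 in d30 BA and 1.59, 1.31, 1.81 and 1.62 in d30 WT (interaction 4.34, SE 0.618, adjusted p = 0.000403). Cd68, a lysosomal protein of macrophages, was at 16.4, 97.5, 23.6 and 28.9 CPM in tumours, 5.78, 8.08 and 8.34 in WT proximal colon, 10.2, 11.4, 10.7, 4.89 and 6.72 in d30 BA and 12.4, 10.8, 10.8 and 11.5 in d30 WT. Its interaction of 2.86 (adjusted p = 0.00574) was 2.07 without tumour 2 (adjusted p = 0.000895), the tumour with the highest level. Adgre1 (F4/80), the general marker of mouse macrophages, moved less: it was at 37.4, 58.5, 45.3 and 58.9 CPM in tumours, 27.8, 32.5 and 30.43 in WT proximal colon, 18.5, 16.3, 17.3, 16.2 and 15.5 in d30 BA and 19.7, 16.97, 15.6 and 11.2 in d30 WT. Tumours were higher than WT (0.73, adjusted p = 0.00638), but the interaction of 0.65 was not called (adjusted p = 0.0776, although 0.0266 without tumour 1 and 0.0243 without d30 WT 4). Csf1r, the receptor macrophages depend on, and C1qa, a complement component they make, gave 1.22 and 1.12 (adjusted p = 0.00832 and 0.0288), and Ccr2, the receptor of recruited monocytes, 0.77 (adjusted p = 0.298), or 1.13 without tumour 2 (adjusted p = 0.00574). The call of C1qa was lost without WT proximal colon 1 or 3, and that of Chil3 with d30 A mice as controls. Among genes outside the list that the naming rule brought up, the macrophage genes Chil3 and Atp6v0d2 reached 2.06 to 150.3 and 4.13 to 76.7 CPM in tumours and at most 0.507 CPM elsewhere, 37.3% of the sequence of Chil3 being shared with Chil4.

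**Figure D3:**
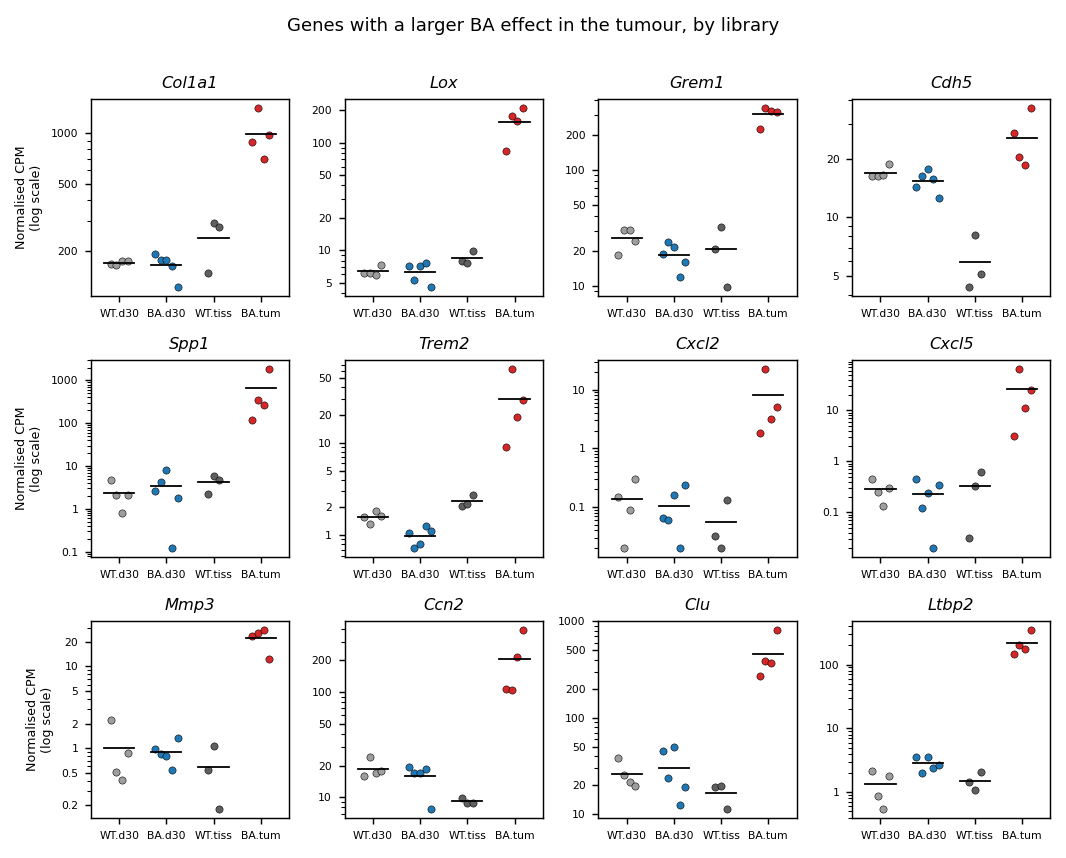
Level of single genes (y axis, normalised CPM on a log scale) in the 16 libraries (x axis: d30 WT, d30 BA, WT proximal colon as WT.tiss and tumours as BA.tum), 1 point per library, with bars at group means and values of 0 drawn at 0.02 CPM. The 4 tumours stand above the 12 other libraries for each gene shown but Cdh5, for which the lowest tumour lies within the d30 range.

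Of 21 neutrophil genes, 15 passed the filter. Of these, 8 were higher in the interaction (9.87% of all genes), 13 at endpoint (15.7%) and 2 at d30 (14.1%). The 6 that did not pass, among them Elane, Mpo and Camp of granule precursors, had 3 to 32 counts over the 16 libraries. With the term for Y-linked reads 4 of the 8 calls were made. S100a9, a calcium-binding protein abundant in neutrophils, stood at 2.15, 28.0, 8.22 and 9.61 CPM in tumours, 0.569, 0.618 and 0.583 in WT proximal colon, 0.0657, 0.0605, 0.242, 0.242 and 0.292 in d30 BA and 0.547, 0, 0.0905 and 0.406 in d30 WT (interaction 4.83, SE 1.21, adjusted p = 0.0129). Csf3r, the receptor of the neutrophil growth factor G-CSF, was at 9.44, 13.3, 8.05 and 10.1 CPM in tumours, 0.916, 2.64 and 1.48 in WT proximal colon, 2.83, 3.63, 3.47, 1.69 and 2.34 in d30 BA and 2.44, 1.97, 1.76 and 1.52 in d30 WT (interaction 2.09, SE 0.441, adjusted p = 0.00495). For both, tumours lay above all other libraries, although the call of S100a9 was lost without d30 WT 1 (adjusted p = 0.0565). The d30 levels of S100a9 were near or under the floor, so that the size of its interaction rests on few counts. Cxcr2, the chemokine receptor of neutrophils, reached 0.833 to 2.28 CPM in tumours and was at or under the floor of 3 counts in each library elsewhere.

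Ly6g, whose protein marks mouse neutrophils, did not follow its list. It stood at 108, 397, 279.8 and 279.6 CPM in tumours, 0.411, 0.449 and 0.627 in WT proximal colon, 316, 362, 435, 414 and 505 in d30 BA and 0.249, 0.0505, 0.272 and 0.304 in d30 WT. It was thus far above WT already at d30 (10.81, adjusted p = 1.68e-09), and the interaction was -1.75 (adjusted p = 0.0803), or -1.48 without tumour 1 (adjusted p = 0.0347) and -1.94 without tumour 2 (adjusted p = 0.0448). In d30 BA, S100a9, S100a8, Trem1 and Cxcr2 were all under 0.3 CPM in the 5 libraries where Ly6g was at 316 CPM or above, whereas Csf3r stood at 1.69 to 3.63 CPM. Mmp8 was the other gene of the list called higher at d30. Ly6g lies on chromosome 15 at 75155240 to 75159126 (GRCm38, GENCODE M21, plus strand) and shares 6.51% of its exonic words of 36 bases with Ly6i.

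Lymphoid genes gave a mixed account. Of 11 genes of B and plasma cells, 6 were higher in the interaction (9.87% of all genes) and 7 without tumour 2. All of these calls were lost with the term for Y-linked reads. The count was 1 to 3 without tumour 1 or 3, any WT proximal colon sample, d30 BA 2, 3, 4 or 5, or d30 WT 1 or 3. Ms4a1 (CD20), a surface protein of B cells, stood at 5.88, 3.85, 9.97 and 4.75 CPM in tumours, 1.20, 0.561 and 0.403 in WT proximal colon, 2.96, 0.423, 0.404, 0.665 and 0.818 in d30 BA and 2.79, 0.253, 0.996 and 0.608 in d30 WT (interaction 3.17, SE 0.974, adjusted p = 0.0365). The d30 groups were uneven, 1 sample in each being over 2 CPM, and the call was lost when any 1 of 9 libraries was left out (interaction 2.34, adjusted p = 0.107, without d30 WT 1). Plasma cell genes differed: Jchain and Igha were lower in BA at d30 (-1.34 and -1.08, adjusted p = 0.0105 and 0.0372), with interactions of 1.26 and 1.66 that were not called (adjusted p = 0.134 and 0.0594), although Igha was called in the interaction without tumour 2 or 4 or d30 BA 1. The d30 call of Igha was lost without any 1 of 7 d30 libraries. Of 14 genes of T and NK cells, 0 were called in the interaction by edgeR, 4 were higher at an unadjusted p under 0.05 and DESeq2 called 1 higher. Cd3e, a chain of the T cell receptor complex, lay at 0.502 to 1.46 CPM in tumours and 1.27 to 1.78 in d30 BA (interaction 1.44, adjusted p = 0.181, or 2.84 and 0.00308 without WT proximal colon 2). MHC class II genes (0 of 7 called by edgeR, DESeq2 or limma, 1 higher at an unadjusted p under 0.05) had a median interaction of 0.11.

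Inflammatory cytokines and chemokines were higher in tumours far more often than at d30. Of 32 genes, 27 passed the filter. In the interaction 13 of these were higher and 1 lower, where 9.87% and 6.46% of all genes were. At endpoint 20 were higher (15.7% of all genes), and at d30 3 were higher (14.1%) and 3 lower (17%). The medians were 2.26 in the interaction, 2.43 at endpoint and 0.06 at d30. Without tumour 2 the count was 14, and with the term for Y-linked reads 5, Il1a, Il11, Lif and Ptgs2 among them. How far the Y-linked difference enters this count was not tested.

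Ligands of CXCR2, the receptor that draws neutrophils, were higher in tumours. Cxcl2 stood at 1.80, 22.5, 3.12 and 5.13 CPM in tumours, 0.0316, 0 and 0.134 in WT proximal colon, 0.0657, 0.0605, 0.162, 0 and 0.234 in d30 BA and 0.149, 0, 0.0905 and 0.304 in d30 WT. Every tumour was above every other library. Cxcl5 was at 3.16, 64.8, 11.01 and 24.6 CPM in tumours, 0.0316, 0.337 and 0.627 in WT proximal colon, 0.460, 0.121, 0.242, 0 and 0.350 in d30 BA and 0.448, 0.253, 0.136 and 0.304 in d30 WT. Their interactions were 7.37 and 6.62 (adjusted p = 0.00793 and 0.00628), and 6.19 and 5.70 without tumour 2, the highest for both. At d30 both genes were near or under the floor of 3 counts, so that the sizes of these interactions rest on few counts. Cxcl1 had a called endpoint effect of 5.22 and an interaction of 3.70 that was not called (adjusted p = 0.0939, or 0.0477 without tumour 1). The IL-6 family members Lif and Il11 had interactions of 2.47 and 3.69 (adjusted p = 0.000258 and 0.00124), and Osm, another of that family, 5.02 (adjusted p = 0.016; 3.43 without tumour 2). Il6 itself reached 0.540 to 8.32 CPM in tumours and was at or under the floor in each library elsewhere. Tnf was higher in tumours (3.40, adjusted p = 0.00122) with an interaction that was not called (1.93, adjusted p = 0.126).

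Transcripts of the interleukin-1 system were in part raised by d30. Il1b stood at 19.7, 29.4, 12.6 and 16.5 CPM in tumours, 1.58, 1.91 and 1.70 in WT proximal colon, 6.90, 9.91, 4.68, 4.77 and 5.20 in d30 BA and 2.88, 1.67, 1.99 and 1.06 in d30 WT. It had risen at d30 (1.72, adjusted p = 0.000727) and rose further at endpoint (3.49; interaction 1.77, SE 0.461, adjusted p = 0.0163, or 1.62 and 0.0546 without WT proximal colon 1). Il1rn, the antagonist of the IL-1 receptor, went the other way: it was at 166, 119.6, 143 and 299.7 CPM in tumours, 12.9, 4.49 and 31.3 in WT proximal colon, 536, 522, 618, 521 and 583 in d30 BA and 14.5, 3.44, 2.40 and 6.49 in d30 WT. Its effect was 6.37 at d30 and 3.48 at endpoint, an interaction of -2.89 (SE 0.736, adjusted p = 0.0148), so that the antagonist stood highest on d30 and the agonist in tumours. The interaction of Il1rn was not called without WT proximal colon 3 (adjusted p = 0.077), and with d30 A mice as controls it was -1.56 (adjusted p = 0.149). Ccl20, a chemokine of intestinal epithelium, was at 0.439, 1.56, 0.384 and 1.12 CPM in tumours, 0.474, 1.68 and 0.224 in WT proximal colon, 0.460, 0.121, 0.162, 0.181 and 0.526 in d30 BA and 4.77, 3.69, 2.90 and 2.99 in d30 WT. Its interaction of 3.71 (adjusted p = 0.00761) thus lay in d30 WT, the group with the highest level, while tumours and WT proximal colon overlapped. Of 15 interferon-stimulated genes, Irf7 alone was called in the interaction (-2.12, adjusted p = 0.0032), with 50.5 to 67.6 CPM in tumours and 290.5 to 701 in d30 BA.

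Senescence genes of arrest and of secretion are described in turn. Of 20 cell cycle inhibitors and p53 targets, 4 were higher in the interaction and 1 lower, with a median of 0.25, and 10 were higher at endpoint against 3 at d30, where the backgrounds were 9.87% higher and 6.46% lower in the interaction, 15.7% higher at endpoint and 14.1% at d30. Cdkn2a lies on chromosome 4 at 89274471 to 89294653 (GRCm38, minus strand), and its counts sum the transcripts of both products, p16 and p19. It stood at 2.81, 9.26, 5.92 and 7.25 CPM in tumours, 0.0632, 0.0561 and 0.179 in WT proximal colon, 0.131, 0.121, 0.162, 0.181 and 0.117 in d30 BA and 0.0995, 0.0505, 0 and 0.101 in d30 WT. All 12 libraries other than tumours were at or near the floor, with 11 counts over the 5 d30 BA samples and 5 over the 4 d30 WT samples, so that a d30 change (1.12, adjusted p = 0.226) was not detectable at this depth. The interaction was 4.78 (SE 0.952, adjusted p = 0.00512), 4.61 without tumour 2 and 3.62 with the term for Y-linked reads (adjusted p = 0.00415 and 0.0179).

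The other inhibitors did not share this pattern. Cdkn1a (p21) stood at 41.4, 71.5, 30.08 and 39.7 CPM in tumours, 31.5, 48.8 and 32.9 in WT proximal colon, 384, 344, 415, 300 and 399 in d30 BA and 278, 269.5, 195 and 258 in d30 WT. Its level differed most between the endpoint and d30 sets, WT proximal colon being -2.73 in log2 from d30 WT (adjusted p = 1.24e-06). The BA effect was 0.56 at d30 and 0.27 at endpoint, neither being called (adjusted p = 0.0572 and 0.439). Cdkn2b, the neighbour of Cdkn2a that encodes p15, gave -0.33 (adjusted p = 0.64), and Cdkn2c, which encodes p18, was the 1 member called lower (-0.79, adjusted p = 0.0297), a call lost when any 1 of 7 libraries was left out and with d30 A mice as controls. Of p53 targets, Phlda3, an inhibitor of AKT, was at 21.9, 27.4, 28.8 and 42.6 CPM in tumours, 13.4, 11.3 and 11.3 in WT proximal colon, 8.80, 5.38, 8.96, 6.46 and 7.71 in d30 BA and 8.11, 11.6, 8.82 and 9.68 in d30 WT (interaction 1.69, SE 0.292, adjusted p = 0.00141). Eda2r, a receptor of the TNF family, and Zmat3, an RNA-binding protein, were the others called higher (2.27 and 1.03, adjusted p = 0.00694 and 0.0146), the latter call being lost without WT proximal colon 1 or 3. Mdm2, Bax and Ccng1 gave 0.08, 0.57 and 0.35 without a call.

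**Figure D4:**
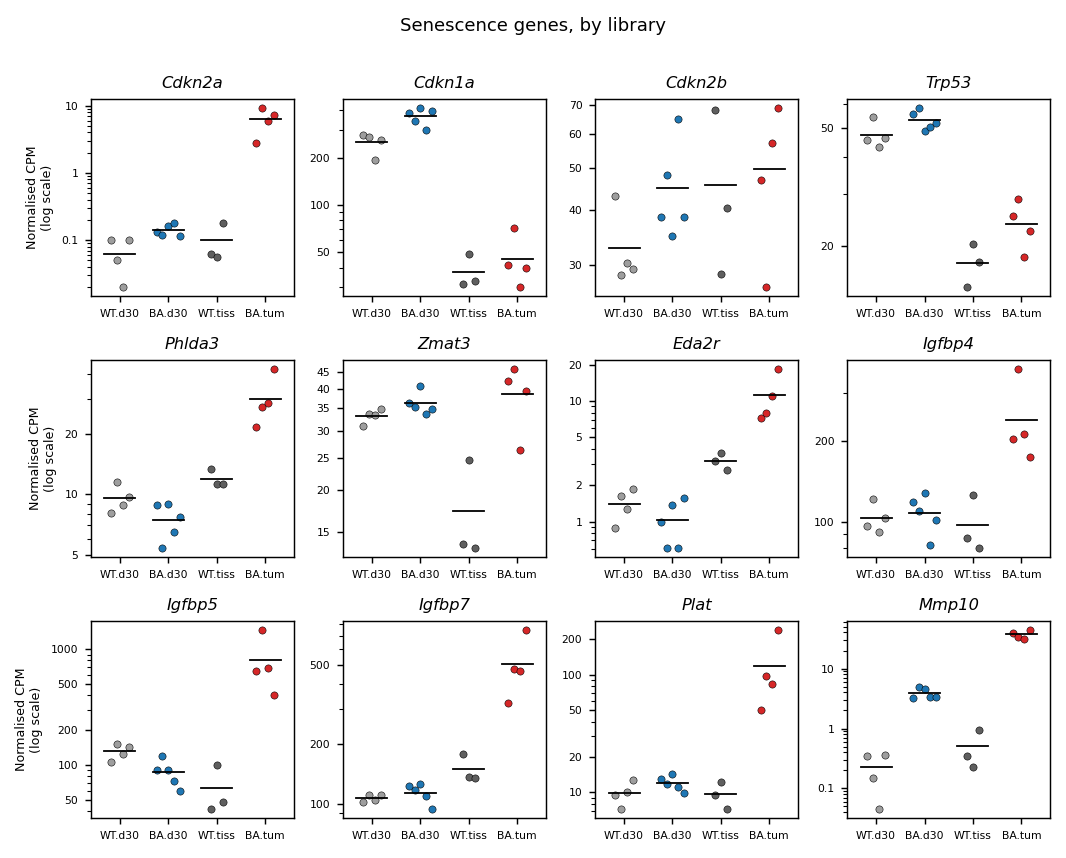
Level of senescence genes (y axis, normalised CPM on a log scale) in the 16 libraries by group (BA.tum for tumours, WT.tiss for WT proximal colon), 1 point per library, with bars at group means and values of 0 drawn at 0.02 CPM. Cdkn2a lies at 2.81 to 9.26 CPM in tumours and at most 0.181 CPM elsewhere, whereas Cdkn1a is higher in both d30 groups than in both endpoint groups.

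Of 25 genes of senescence-associated secretion, 14 were higher in the interaction (9.87% of all genes), 20 at endpoint (15.7%) and 8 at d30 (14.1%). All 8 were higher at both times. The medians were 1.65, 2.51 and 0.07 in the interaction, at endpoint and at d30. The list is not separate from the others, since 15 of its 25 genes are also in the protease, cytokine, EGFR ligand or hypoxia lists, and its count was 16 without tumour 2 and 7 with the term for Y-linked reads. Igfbp5, a binding protein of insulin-like growth factors, stood at 655, 1469, 689 and 406 CPM in tumours, 41.8, 100.3 and 48.3 in WT proximal colon, 90.7, 119.7, 90.8, 73.0 and 60.0 in d30 BA and 107, 152, 126 and 143 in d30 WT (interaction 4.27, SE 0.492, adjusted p = 0.000128). Its relatives Igfbp4 and Igfbp7 gave 1.23 (not called without WT proximal colon 1) and 1.65. These 3 were flat or lower at d30. Plaur, the receptor of urokinase, had most of its effect by d30 instead (2.66 at d30 and 3.17 at endpoint, interaction 0.51, adjusted p = 0.377). Fibroblasts and macrophages also express many of these genes, and their summed levels were highest in the same 4 tumours. Their part in the secretion list was not tested.

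Matrix proteases and their inhibitors followed closely. Of 22 such genes, 21 passed the filter, and 16 were higher in the interaction (9.87% of all genes). The medians were 2.42 in the interaction, 3.17 at endpoint and 0.10 at d30. The interaction count was 16 without tumour 2 as well and 11 with the term for Y-linked reads. Mmp13, Mmp12, Mmp3 and Mmp10 lie in this order on chromosome 9, and their promoters are shown because these genes had unequal effects at d30. Each sequence covers 250 bases before to 50 bases after the start of the gene (RefSeq, GRCm38.p6, plus strand), with capitals marking the letters TGAGTCA or TGACTCA, the binding motif of AP-1, a factor downstream of ERK.
Mmp13 promoter, chr9:7272264-7272563: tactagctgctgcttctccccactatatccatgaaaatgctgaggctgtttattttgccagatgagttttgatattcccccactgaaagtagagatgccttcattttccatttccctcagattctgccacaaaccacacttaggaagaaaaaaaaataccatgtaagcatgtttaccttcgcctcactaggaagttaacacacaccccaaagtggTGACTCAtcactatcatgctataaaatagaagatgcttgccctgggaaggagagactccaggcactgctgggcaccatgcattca
Mmp12 promoter, chr9:7344147-7344446: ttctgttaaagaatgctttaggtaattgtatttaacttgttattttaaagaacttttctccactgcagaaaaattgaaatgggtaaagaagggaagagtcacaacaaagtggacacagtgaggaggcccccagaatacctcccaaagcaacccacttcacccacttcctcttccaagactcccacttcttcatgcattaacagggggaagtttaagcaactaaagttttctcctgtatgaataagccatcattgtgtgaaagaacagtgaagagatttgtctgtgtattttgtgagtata
Mmp3 promoter, chr9:7445572-7445871: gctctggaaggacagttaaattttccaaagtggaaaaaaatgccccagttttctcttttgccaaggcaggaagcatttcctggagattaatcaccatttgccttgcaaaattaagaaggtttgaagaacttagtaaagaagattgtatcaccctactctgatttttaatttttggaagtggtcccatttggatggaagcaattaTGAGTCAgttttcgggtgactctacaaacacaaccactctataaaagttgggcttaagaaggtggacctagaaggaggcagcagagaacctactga
Mmp10 promoter, chr9:7502092-7502391: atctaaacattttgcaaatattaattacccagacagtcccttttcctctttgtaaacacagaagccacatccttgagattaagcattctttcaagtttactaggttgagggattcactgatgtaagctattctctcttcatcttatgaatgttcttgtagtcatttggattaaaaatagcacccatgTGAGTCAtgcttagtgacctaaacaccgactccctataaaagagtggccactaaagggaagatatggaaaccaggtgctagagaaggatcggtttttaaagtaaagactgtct

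The motif, which reads as the other spelling on the opposite strand, began 35 bases before the start of Mmp13, 46 before Mmp3 and 63 before Mmp10 and was not in the window of Mmp12, and 5.2% of 32851 mouse promoter windows of this length hold it. Mmp3 (stromelysin 1) stood at 23.3, 25.7, 28.1 and 12.3 CPM in tumours, 0.537, 1.07 and 0.179 in WT proximal colon, 0.986, 0.846, 0.808, 0.544 and 1.34 in d30 BA and 2.24, 0.505, 0.407 and 0.862 in d30 WT. It had no called effect at d30 (-0.14, adjusted p = 0.866) and an interaction of 5.40 (SE 0.743, adjusted p = 0.000321). Mmp10 (stromelysin 2) stood at 39.1, 33.9, 31.1 and 44.2 CPM in tumours, 0.347, 0.225 and 0.941 in WT proximal colon, 3.29, 4.96, 4.52, 3.38 and 3.39 in d30 BA and 0.348, 0.152, 0.0452 and 0.355 in d30 WT. It was thus raised at d30 in every BA sample (4.10, adjusted p = 3.17e-06) and again in tumours (interaction 2.08, SE 0.599, adjusted p = 0.0316). The interaction of Mmp10 was not called without WT proximal colon 1 or d30 WT 1 or 4. Mmp3 and Mmp10, whose windows both hold the motif, had unequal effects at d30, and the part of the motif was not tested. Mmp12, the elastase of macrophages, was at 36.04, 137, 72.2 and 68.3 CPM in tumours, 1.01, 1.24 and 1.75 in WT proximal colon, 6.04, 5.32, 5.01, 1.93 and 4.79 in d30 BA and 0.398, 0.657, 0.407 and 1.52 in d30 WT (2.63 at d30, interaction 3.25, SE 0.669, adjusted p = 0.00468). Mmp13 (collagenase 3) gave 1.72 at d30 and an interaction of 1.37 that was not called (adjusted p = 0.217). Of the exonic words of Mmp3 and Mmp10, 12.3% and 10.8% also occur in other genes, and Mmp12 overlaps Mmp1b on the other strand. Timp1, an inhibitor of matrix metalloproteases, and Serpine2, one of serine proteases, had higher effects at endpoint too (3.98 and 4.85, adjusted p = 4.29e-05 and 0.000123).

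YAP targets were divided between early and late members. Of 18 genes, 9 were higher in the interaction (9.87% of all genes), 16 at endpoint (15.7%) and 4 at d30 (14.1%). The medians were 1.17, 1.32 and 0.27, and 6 genes were higher in the interaction with the term for Y-linked reads. Ccn2 (CTGF), a matricellular protein that TGFβ induces as well, stood at 106, 105, 217 and 391 CPM in tumours, 9.76, 8.76 and 8.87 in WT proximal colon, 19.3, 17.1, 16.96, 18.6 and 7.71 in d30 BA and 15.8, 24.2, 17.02 and 17.6 in d30 WT (interaction 4.71, SE 0.516, adjusted p = 9.64e-05; 18.8% of its words are shared, mostly with Gm15270 on the other strand). Clu (clusterin), a chaperone that marks regenerating crypts, was at 271, 389, 371 and 819 CPM in tumours, 19.1, 19.4 and 11.3 in WT proximal colon, 44.9, 23.9, 50.2, 12.4 and 19.1 in d30 BA and 38.3, 25.3, 21.6 and 19.6 in d30 WT (interaction 4.60, SE 0.586, adjusted p = 0.000245). Neither had a called effect at d30. Msln (mesothelin) rose at d30 and further in tumours (2.49 and 6.53, interaction 4.05, adjusted p = 0.00669). F3 and Wwc1 were at full size by d30.

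Genes of TGFβ signalling were higher in tumours, although the genotype removes its receptor from the epithelium. Of 18 ligands and targets, 11 were higher in the interaction (9.87% of all genes), 14 at endpoint (15.7%) and 8 at d30 (14.1%). Ltbp2, a latent TGFβ-binding protein of the matrix, stood at 145, 203, 174 and 349 CPM in tumours, 1.42, 1.07 and 2.06 in WT proximal colon, 3.55, 2.00, 3.55, 2.36 and 2.63 in d30 BA and 2.14, 0.859, 0.543 and 1.77 in d30 WT (interaction 6.07, SE 0.534, adjusted p = 2.23e-05). The ligand Tgfb1 gave 1.84 and the activin subunits Inhba and Inhbb 2.40 and 1.88 (adjusted p = 0.00536, 0.00409 and 0.00185). Pmepa1, a feedback inhibitor that TGFβ induces, was higher at d30 (1.12) and more so at endpoint (2.45; interaction 1.32, adjusted p = 0.000711). Tgfbr2, the partner of the deleted receptor, was flat at d30 (0.08) and higher in tumours (1.74). Stromal cells keep the receptor in this model, and the summed fibroblast level was highest in the same tumours. Its part in these values was not tested.

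Against these additions, a part of the BA program had its endpoint size by d30. A gene was said to be at full size at d30 when both effects were called in the same direction, the d30 effect was at least 1 in log2 and the 95% interval of the interaction lay within -1 and 1. This held for 261 of 20637 genes (1.26%), 154 higher (0.746%) and 107 lower (0.518%), out of 1339 genes that were called in both effects in the same direction with at least a 2-fold d30 effect. Of these 1339 genes, 118 had a called interaction. The others that did not meet the rule had neither a called difference nor an interval within its limits. The naming rule gives Slc7a11, F3, Etv4, Lpcat4, Cd55, Gpr137b-ps, Phldb2, Macc1, Phlda1, Dusp6 and Prrg4 among those with the largest d30 increase, and Tfpi2, Ces2c, Gstt1, Isoc2a, Cpm and Kcnk3 as the first of those with the largest decrease.

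ERK output was the list with most genes at full size. Of 18 genes, 12 were higher at d30 (14.1% of all genes) and 16 at endpoint (15.7%). The rule was met by 5 (Dusp5, Dusp6, Etv4, Phlda1 and Spry2), where 0.746% of all genes met it as higher. Dusp6, the phosphatase that ERK induces to switch itself off, stood at 138, 91.8, 167 and 226 CPM in tumours, 30.29, 33.7 and 31.7 in WT proximal colon, 186, 244, 168, 213 and 129 in d30 BA and 29.7, 45.8, 43.6 and 32.8 in d30 WT. Its d30 effect of 2.31 and endpoint effect of 2.29 differed by -0.01 (95% interval -0.74 to 0.71). Etv4, a transcription factor of the same pathway, was at 24.9, 40.7, 37.7 and 46.7 CPM in tumours, 2.94, 3.14 and 5.11 in WT proximal colon, 33.5, 37.9, 42.3, 39.6 and 37.6 in d30 BA and 4.97, 5.10, 4.03 and 4.00 in d30 WT (3.08 and 3.33, interval of the difference -0.34 to 0.85). For both genes BA and WT were separate at each time. Ccnd1 (cyclin D1), by contrast, was called higher in the interaction (1.32, adjusted p = 0.0125; 0.0553 without WT proximal colon 1), with a d30 effect of -0.14 that was not called.

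Other full-size genes lay outside that list. Slc7a11, the cystine transporter that feeds glutathione synthesis, stood at 53.8, 54.8, 65.8 and 74.4 CPM in tumours, 1.99, 2.75 and 3.18 in WT proximal colon, 66.4, 55.6, 65.6, 68.6 and 55.9 in d30 BA and 3.98, 2.88, 1.85 and 1.93 in d30 WT, with effects of 4.55 and 4.57 (interval of the difference -0.63 to 0.66). F3, the tissue factor that starts coagulation, was at 159.9, 148, 151 and 368 CPM in tumours, 20.6, 16.6 and 17.4 in WT proximal colon, 150.3, 161, 253, 159.6 and 187 in d30 BA and 16.3, 18.4, 17.8 and 19.8 in d30 WT (3.33 and 3.50, interval -0.60 to 0.94). Cd55, a regulator of complement, was at 92.3, 82.1, 101 and 119 CPM in tumours, 25.4, 20.8 and 23.1 in WT proximal colon, 78.8, 68.5, 88.2, 92.2 and 88.5 in d30 BA and 12.3, 12.8, 16.8 and 19.4 in d30 WT (2.44 and 2.09, interval -0.82 to 0.12). In each case the d30 and tumour levels overlapped while all WT libraries were lower. Btc, an EGFR ligand, was also at full size (1.90 at d30 and 2.14 at endpoint). Of the genes lost, Ces2c, a carboxylesterase, Gstt1, a glutathione transferase, and Tfpi2, an inhibitor of the tissue factor pathway, were lower to a like extent at both times, within the 2-fold limit of the rule (-2.17, -2.17 and -2.63 at d30, with -2.45, -2.05 and -2.40 at endpoint).

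**Figure D5:**
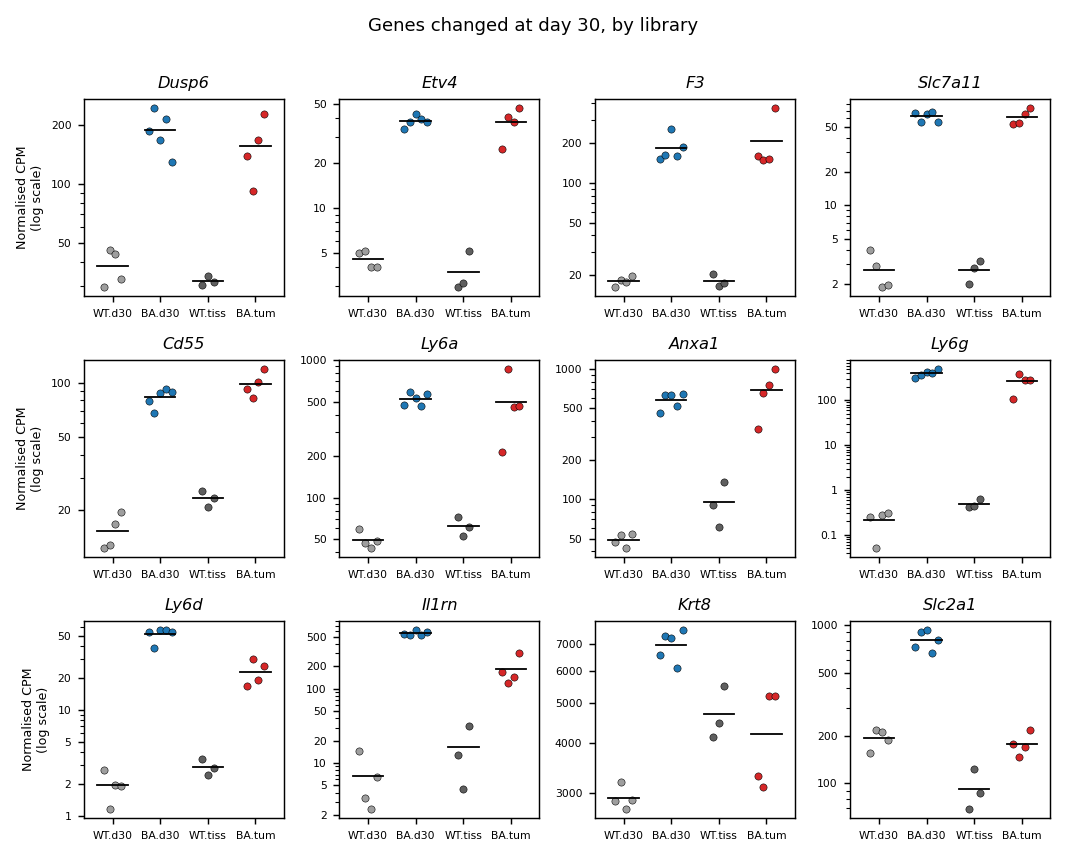
Level of genes with a large BA effect by d30 (y axis, normalised CPM on a log scale) in the 16 libraries by group, 1 point per library, with bars at group means. For each gene but Krt8 and Slc2a1, d30 BA and tumours (BA.tum) lie above d30 WT and WT proximal colon (WT.tiss), and Ly6d and Il1rn stand higher in d30 BA than in tumours.

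The foetal list had large effects at both times and added little in tumours. The study took a published foetal signature and showed selected genes of it that differed between these endpoint samples. The list used here was chosen with earlier results of these data known, so that its direction is no independent evidence. Of its 11 genes, 8 were higher at d30 (14.1% of all genes) and 10 at endpoint (15.7%), with medians of 2.90 and 2.85. In the interaction 3 were lower (6.46% of all genes) and 1 was higher (9.87%). With the term for Y-linked reads 6 were lower and 0 higher. None met the full-size rule, since for all 8 genes called at d30 the 95% interval of the interaction reached below -1. Ly6a (Sca1), a surface protein of the regenerating epithelium, stood at 214, 863, 455 and 463 CPM in tumours, 71.9, 52.6 and 61.3 in WT proximal colon, 471, 589, 528, 465 and 563 in d30 BA and 58.8, 46.8, 42.9 and 48.3 in d30 WT. Its effects of 3.41 and 3.01 differed by -0.40 (95% interval -1.25 to 0.45), tumours being more spread out than d30 samples, and 28.8% of its words are shared, mostly with Ly6c1. Anxa1 (annexin A1) was at 349, 656, 759 and 1003 CPM in tumours, 90.7, 61.2 and 135 in WT proximal colon, 457, 637, 627, 524 and 638 in d30 BA and 46.8, 52.8, 42.2 and 54.5 in d30 WT (3.56 and 2.85, interval of the difference -1.52 to 0.12). Ly6d, a relative of Ly6a, was at 16.9, 30.08, 19.0 and 25.9 CPM in tumours, 3.41, 2.41 and 2.82 in WT proximal colon, 53.7, 37.9, 56.7, 56.4 and 54.2 in d30 BA and 2.73, 1.16, 1.95 and 1.93 in d30 WT. It was higher in every d30 BA sample than in any tumour (interaction -1.75, SE 0.333, adjusted p = 0.00246), but with d30 A mice as controls the interaction was -0.63 and not called (adjusted p = 0.285). Anxa3 and Anxa5 had smaller effects at endpoint as well, with some overlap of levels (-1.57 and -1.04, adjusted p = 0.00464 and 0.00823). Gastric genes were few: 10 of 15 passed the filter, of which 8 were higher at endpoint (15.7% of all genes) and 3 at d30 (14.1%). In the interaction 0 of the 10 were called by edgeR, while DESeq2 called 1 higher and limma 2. At an unadjusted p under 0.05, 2 were higher and 1 lower. Vsig1, a junction protein of the stomach, and the transcription factor Onecut2 were high at both times (4.18 and 5.23 at d30, 5.32 and 6.20 at endpoint).

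Some early changes were smaller in tumours than at d30. Of 13 general epithelial genes, which include the altered genes Tgfbr1 and Braf, 8 were higher in BA at d30 (14.1% of all genes) and 4 at endpoint (15.7%). Of these 13, 7 had a lower effect at endpoint (6.46% of all genes did) and 1, Tgfbr1, a higher one (9.87%). Krt8, a keratin of simple epithelium, stood at 3310, 3108, 5221 and 5202 CPM in tumours, 4127, 4467 and 5518 in WT proximal colon, 6577, 7308, 7240, 6092 and 7581 in d30 BA and 2876, 3194, 2743 and 2890 in d30 WT. It was thus raised at d30 (1.25, adjusted p = 0.000322) and not at endpoint (-0.16, adjusted p = 0.64; interaction -1.41, SE 0.302, adjusted p = 0.00517). The summed epithelial level was 19150 to 22570 CPM in d30 BA against 9752 to 11830 in d30 WT and 9311 to 13810 in tumours. The d30 BA libraries thus had the highest epithelial sum and the lowest fibroblast sum, and the part of tissue makeup in these values was not tested. When d30 A mice stood in for d30 WT, 1 of the 7 genes was called, Krt8 giving -1.14 (adjusted p = 0.0756). Without WT proximal colon 2 or 3, d30 BA 1, 3 or 5, or d30 WT 1, 3 or 4, the count was 3 or 4. Of 12 hypoxia genes, 9 were higher at d30 (14.1% of all genes) and 6 at endpoint (15.7%). In the interaction 4 were lower (6.46% of all genes), or 6 without tumour 2 and 2 with the term for Y-linked reads. The glucose transporter Slc2a1 had 2.06 at d30 and 0.95 at endpoint, and Ndrg1, a stress gene, 1.59 and -0.13 (interactions -1.12 and -1.72, adjusted p = 0.00957 and 0.00508).

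Genes of differentiated cells were lower at different times. Of 20 colonocyte genes, 11 were lower at d30 (17% of all genes), 11 at endpoint (13.6%) and 4 in the interaction (6.46%). Car2, a carbonic anhydrase, and S100g, a calcium-binding protein, were low at both times (-1.41 and -8.13 at d30, -2.00 and -6.57 at endpoint). Car1, another carbonic anhydrase of the colon, was not: it stood at 3048, 1009, 4857 and 3988 CPM in tumours, 11570, 22780 and 14960 in WT proximal colon, 23290, 24000, 21860, 21190 and 23290 in d30 BA and 20230, 24920, 18780 and 21080 in d30 WT. It had a called loss at endpoint and an effect of 0.10 at d30 that was not called (interaction -2.45, SE 0.524, adjusted p = 0.00533). Car4 and the hormone Guca2a shared this pattern (-2.70 and -2.26).

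Genes of hormone-producing cells were lower mainly at endpoint. Of 15 enteroendocrine and tuft cell genes tested, 7 were lower in the interaction, where 6.46% of all genes were. At endpoint 10 were lower (13.6% of all genes) and at d30 2 (17%). The median interaction was -2.17, and with the term for Y-linked reads 3 were lower in the interaction. Not all of it lay between the BA groups. In WT proximal colon 6 of the 15 genes were higher than in d30 WT (20.2% of all genes), with a median of 0.74. In tumours 8 were lower than in d30 BA (28.2% of all genes), with a median of -1.34. Gcg, the gene of glucagon-like peptides, stood at 6.58, 4.16, 3.78 and 3.47 CPM in tumours, 87.5, 43.3 and 72.8 in WT proximal colon, 24.8, 24.2, 26.6, 23.7 and 25.4 in d30 BA and 59.5, 30.9, 30.6 and 37.8 in d30 WT (interaction -3.24, SE 0.352, adjusted p = 7.13e-05). Each tumour lay below every other library, and each d30 BA sample below each d30 WT sample (-0.67, adjusted p = 0.033). Sct (secretin), Chga (chromogranin A) and, from outside the list, Nts (neurotensin) had interactions of -3.81, -2.54 and -4.25. Pyy (peptide YY) was higher in BA at d30 (1.17) and lower at endpoint (-2.30; adjusted p = 0.00338 and 3.45e-05). The tuft cell gene Dclk1 had an interaction of 0.22 that was not called.

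At the ends of the ranking over all genes, the naming rule gave genes of several kinds. Among the 12 with the largest interaction were 5 Y-linked genes, Chil3, Atp6v0d2 and Spp1 (above), and Adam28, a membrane protease with 11.3 to 22.6 CPM in tumours and at most 0.717 elsewhere (interaction 7.02, adjusted p = 5.85e-06). Itln1 (intelectin) and Reg3g, an antimicrobial lectin, also ranked there, yet both varied widely within groups: Reg3g ranged over 50.0 to 2817 CPM in tumours and 1.27 to 509 in d30 WT, with an adjusted p = 0.0482, its call being lost when any 1 of 11 libraries was left out (interaction 8.01, and 2.43 without d30 WT 1). Among the 12 with the smallest, Gsta2, a glutathione transferase, 57.8% of whose words are shared, most with Gm10639, stood at 53.05 to 71.7 CPM in d30 BA against 0.312 to 0.603 in tumours (interaction -5.24, adjusted p = 6.49e-05). Alb, the albumin gene of foetal and adult liver, stood at 4.14 to 39.3 CPM in d30 BA and at most 0.406 in the other groups, its call being lost without WT proximal colon 2 or 3.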

How the data were processed

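RNA-seq was made from whole proximal colon tissue or tumours. The authors trimmed reads with Trim Galore 0.6.4, checked them with FastQC 0.11.8, aligned them to GRCm38 with HISAT2 2.1.0 and counted them per gene with featureCounts 1.6.4 (tools per the submitters' processing notes). The deposited values were raw counts of reads for 55421 genes, not normalised, and whether counting used strand is not given in the sources used here, so that reads of genes overlapping on opposite strands may be mixed. Symbols were taken from GENCODE M21 for 55154 identifiers, and 267 had none. All columns were matched to a sample by its title (0 unmatched). Total counts were 12021486 to 29106913 per library. The floor of 3 counts covers counting error only. The intervals of the interaction came from the fit described next and include the spread between samples.

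Counts of the 16 libraries were filtered with filterByExpr, scaled with TMM and fitted in edgeR 4.0.16 (R 4.3.3, quasi-likelihood) with a mean for each of the 4 groups, and p-values were adjusted by Benjamini-Hochberg over 20637 genes at a threshold of 0.05. The SE came from the same fit. The members and the gene lists were chosen with earlier results of these data known. Named genes were the 12 largest and smallest interactions at an average log2 CPM of at least 1, the extremes and up to 6 more members of each list (all members of the arrest, fibroblast, macrophage, neutrophil, cytokine, secretion, foetal and sex-linked lists), the 12 largest full-size changes in each direction and 6 genes changing sign. Genes named in the text by other routes were chosen after their values were seen. The procedure was tested on simulated data. Alternatives were DESeq2 1.42.0, limma 3.58.1 with voom, other scalings and filters, separate fits, each library left out, a replicate block, d30 Alk5 fl/fl mice as controls and a term for Y-linked reads. Some genes that the rule names are not reported here. Promoters came from RefSeq (GRCm38.p6).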

Additional observations from a re-analysis of the deposited data

Results flagged for a closer look

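Among 41 genes whose levels are given by library, 123 groups of 4 or 5 samples were searched for a library standing apart by Dixon's criterion at 95%, and 11 were found, where chance alone gives about 1 in 20. BA tumour 4 stood apart as the highest of the tumours for Spp1 (1862 CPM), F3 (367.5 CPM), Pdgfrb (202.6 CPM) and Thbs4 (273.5 CPM). BA tumour 2 was the highest for Cd68 (97.51 CPM) and Cxcl2 (22.48 CPM). In d30 BA, replicate 5 was the lowest for Ccn2 (7.712 CPM), replicate 2 the lowest for Ly6d (37.85 CPM) and replicate 1 the highest for Ms4a1 (2.957 CPM). In d30 WT, replicate 4 was the highest for Lox (7.35 CPM) and Cdh5 (18.76 CPM).

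The 6 genes named by rule for a change of sign between the 2 effects are given next, the interaction testing that difference, and their cause was not tested. Thbs4, a thrombospondin of the matrix, stood at 45.6, 55.6, 33.2 and 274 CPM in tumours, 7.83, 2.08 and 8.60 in WT proximal colon, 0.986, 0.363, 0.565, 1.33 and 0.350 in d30 BA and 5.22, 3.38, 4.07 and 2.99 in d30 WT. It was thus lower in BA at d30 (-2.44) and higher in tumours (4.03), with an interaction of 6.47 (adjusted p = 0.000486, edgeR). Saa3, an acute-phase protein, had an interaction of 4.74 (adjusted p = 0.00774), or 3.15 without tumour 2, and with the term for Y-linked reads it was 2.62 and not called (adjusted p = 0.147). Ubd, a ubiquitin-like protein induced by cytokines, gave 4.70, and Ms4a10, a membrane protein, gave 6.74, or 3.34 and no call with that term (adjusted p = 0.0672). Wdr72 and Gm5155 gave 7.89 and 7.71, Gm5155 having no count in WT proximal colon, so that its value depends on the prior count and is no estimate of size.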

How the results depend on the processing

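Across 28 settings, 186 single-gene values gave 5063 recomputed values, of which 4759 kept their direction and side of the threshold, 223 lost the call, 44 gained one and 37 changed sign. One of these signs belonged to a called value: Fabp6, with an interaction of -5.29, gave 1.75 when d30 Alk5 fl/fl mice replaced d30 WT (adjusted p = 0.691). The others belonged to values with no call before or after the change. With the term for Y-linked reads, the interactions of Cd14, Bax, Etv4, F3, Plaur and Slc7a11 became -0.87, -0.194, -0.336, -0.201, -0.027 and -0.193. With d30 Alk5 fl/fl mice as controls, the interactions of Dclk1, Dusp6 and Ly6a became -0.01, 0.034 and 0.11, and the d30 effect of Ly6e -0.236. The interaction of Slc7a11 was -0.016 with limma, -0.01 with quality weights, -0.07 with no filter and -0.034 with the replicate block. That of Mdm2 was -0.015 with no filter, that of F3 -0.024 with the replicate block, and that of Dusp6 0.056 with a filter at 1 CPM and 0.003 with all proximal colon groups fitted. Over the fits that left out 1 library, the interaction spanned 0 for Cd14 (-0.092 to 0.899), Cdkn1a (-0.528 to 0.015), Mdm2 (-0.025 to 0.168), F3 (-0.224 to 0.368), Slc7a11 (-0.242 to 0.199) and Dusp6 (-0.213 to 0.231). Of 110 called interactions, 46 were not called with the term for Y-linked reads. Counts that moved by over 1.5 times were as follows, and the cause was not tested. Genes called at endpoint numbered 3619 with limma and quality weights per group and 2527 when the endpoint libraries were fitted alone, fewer libraries then sharing the spread. Genes called at d30 numbered 10253 with quality weights. Genes with a lower effect at endpoint numbered 712 with the replicate block and 825 with d30 Alk5 fl/fl mice as controls. Genes differing between the WT groups numbered 4737, and full-size genes 143, with the term for Y-linked reads. Leaving out 1 library gave 1376 to 2794 genes with a higher effect at endpoint, 814 to 2257 with a lower one and 199 to 338 at full size. Both highest interaction counts came without tumour 2, and the lower count fell by over 1.5 times, to between 814 and 851, without WT proximal colon 3 (849), d30 BA 5 (851) or d30 WT 1, 3 or 4 (820, 823 and 814). DESeq2 gave 2349 higher and 1868 lower.

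Replicate numbers did not pair the samples: same-numbered samples of different groups had correlated deviations of -0.187 to 0.18 (median 0.009, 21 pairs) against -0.266 to 0.24 (median 0.002, 74 pairs) for others. With the replicate block, 1372 genes had a higher effect at endpoint, 4847 were called at endpoint, 4819 at d30, 7348 between the WT groups and 11444 between the BA groups, and 213 were at full size.

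The calls of S100a8, Ms4a1, Pax5, Reg3g and Nrg1 were among the least stable, each being lost in 11 to 15 settings. Depth limited genes at or near 3 counts per library, such as Cdkn2a at d30, and the sex and batch of libraries are not given in the sources used here.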

Other observations

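Growth factor genes not described above differed as well. Ereg (epiregulin), a ligand of EGFR, was higher at d30 and further in tumours (0.83 and 2.12, interaction 1.29, adjusted p = 0.00448, edgeR). Nrg1, a ligand of ERBB receptors, was lower in BA at d30 (-2.60) and had an interaction of 3.07 (adjusted p = 0.0412), or 2.13 without tumour 2 (adjusted p = 0.0636), a call lost when any 1 of 12 libraries was left out. Zg16, a lectin of goblet cells, was higher in BA at d30 and lower in tumours (1.15 and -0.84).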
